A study of Mus musculus with 12 samples.

Results

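Light zone and dark zone germinal center B cells from the spleen of untreated NZBWF1/J mice were compared by RNA sequencing. The samples were chosen by their titles, and 6 of the series' 12 libraries belong to this comparison, with 3 light zone control and 3 dark zone control libraries of 1000 sorted cells each. NZBWF1/J is an F1 hybrid mouse strain that develops a lupus-like disease, and all 12 libraries come from it, with no transgene or other allele named in the labels. The other 6 libraries are light and dark zone cells of mice given 6 doses of 200 ug CTLA4-Ig and 6 doses of 250 ug anti-CD40L over 2 weeks, starting at 18 weeks of age. The labels give that age for treated mice and none for untreated ones. Nor do they say whether replicate numbers mark separate mice, or whether the zones of 1 number come from 1 mouse, so p-values reflect how much libraries of a zone differ, which may be technical. The sort was set up by B cell enrichment and antibody staining, and the labels do not name the markers of the zone gate.

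A germinal center forms in a spleen follicle when B cells answer an antigen. In its dark zone, held there by the chemokine receptor CXCR4, B cells go through rapid divisions while somatic hypermutation alters their antibody genes. In its light zone they take up antigen, present its peptides on MHC class II molecules to follicular helper T cells, and receive CD40L and other help, after which selected cells grow and return to the dark zone, and others leave as memory or plasma cells.

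Each library held 16032746 to 24313510 counts over 12212 gene symbols. Neither the total nor the number of symbols with a count (11384 to 11960) separated the zones, with means of 20615480 counts in light zone and 19791183 counts in dark zone libraries (exact permutation test, two-sided, p = 0.7 for each measure; 3 against 3 libraries cannot go below 0.1). Expression is given as normalised read counts (CPM, scaled to library size and by TMM), and a difference is the log2 ratio of light zone over dark zone with its standard error (SE) from 3 libraries per zone. The replicates of a zone were not close, with correlations of log2 CPM of 0.729 to 0.811 within a zone and 0.719 to 0.86 between zones. The first principal component (26.5% of the variance) placed dark zone control replicate 2 at 152 and the other 5 libraries at -75.7 to -16.2. In 508 symbols (4.16%) a library had no count while another of its own zone had at least 10 CPM.

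By edgeR's quasi-likelihood test 0 of 10937 tested genes passed an adjusted p of 0.05, and 516 genes (4.72%) had an unadjusted p under 0.05, where 547 would be expected with no difference at all. Of these 216 (1.97%) were higher and 300 (2.74%) lower in light zone libraries. DESeq2 called 110 genes (1.01%), 36 with the light zone higher (0.329%) and 74 with it lower (0.677%), and limma-voom with quality weights called 1, Cd52. The genes below are therefore described by their values and by whether the libraries of the zones overlap, and no gene is said to have changed. In 548 tested genes (5.01%) every light zone library was above every dark zone library, and in 589 (5.39%) every one was below, 1137 in all (10.4%). With 3 against 3 libraries and no zone difference, such an order has a probability of 0.1 (exact permutation, two-sided). The 10.4% is thus near the share expected without any difference. No overlap in a single gene describes its values and is not by itself evidence of a zone difference. Counts of such genes in the lists below are to be read beside these shares. Over all tested genes the light zone was higher in 52.1% and lower in 47.9%, and the median log2 difference was 0.03.

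The median spread between replicates was larger than the median zone difference in each class of expression. Among genes of 1 to 10 CPM the median SD within a zone was 1.24 on the log2 scale and the median absolute zone difference 0.63. Among the 185 genes of 1000 CPM and over the SD was 0.23 and the difference 0.15. In most genes of each level the zones overlapped, and the share that separated them ran over 7.54% for genes under 1 CPM and 12.8% for those of 100 to 1000 CPM.

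**Figure D1:**
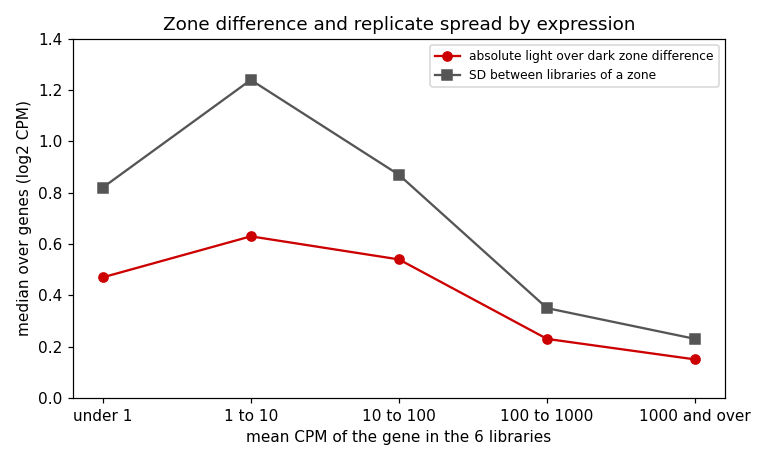
Median absolute log2 difference between the zones (circles) and median SD of log2 CPM between the libraries of a zone (squares), by the mean CPM of the gene in the 6 untreated libraries. The SD lies above the zone difference in each class of expression, from 1.24 against 0.63 at 1 to 10 CPM to 0.23 against 0.15 at 1000 CPM and over.

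The known light zone markers Cd86 and Cd83 were higher in light zone libraries, and the dark zone marker Cxcr4 was higher in only part of the dark zone libraries. The labels do not name the gate markers, so any of these genes may have set the sort. Their values therefore cannot serve as a check of it. Cd86 encodes the costimulatory molecule that engages CD28 on T cells. It had 209, 153 and 172 CPM in light zone libraries, against 9.81, 27 and 52.2 CPM in dark zone libraries. The zones were far apart, with a log2 difference of 2.59 (SE 0.62), and DESeq2 called the gene (adjusted p = 0.0026). Cd83, a surface protein of light zone cells that steadies MHC class II and CD86, had 324, 588 and 456 CPM in light zone libraries, against 273, 46.1 and 211 CPM in dark zone libraries. Its zones did not overlap either, but dark zone replicate 1 lay close to the lowest light zone library (log2 difference 1.37, SE 0.64; DESeq2 adjusted p = 0.468). Cxcr4 (chr1:128588199-128592293 on mm10) had 35.8, 31.2 and 30.8 CPM in light zone libraries, against 73.7, 14.5 and 83.4 CPM in dark zone libraries. Here dark zone replicate 2 was the lowest of all 6 libraries. The log2 difference was -0.81 (SE 0.66), or -1.27 without that library and -0.43 without dark zone replicate 3.

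**Figure D2:**
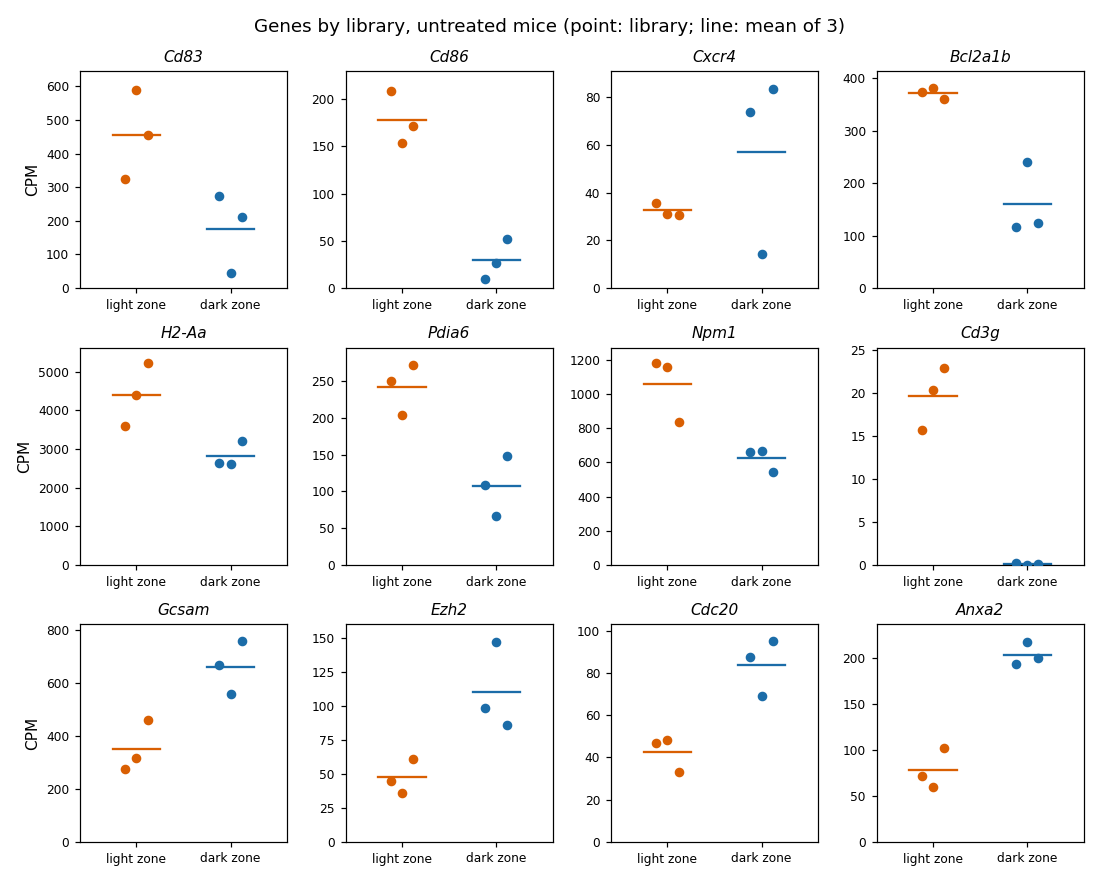
CPM (linear axes from 0) of 12 genes in the 3 light zone (left) and 3 dark zone (right) libraries of untreated mice; a point is a library and a line the mean of 3. The genes were picked for display and are not typical. The zones do not overlap in 11 of them, beside 10.4% of all tested genes, while 1 dark zone library lies below all others for Cxcr4, at 14.5 CPM.

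Genes of the light zone program, a list of 30 surface, signalling and activation genes known from light zone cells, leaned to the light zone. All 30 were tested, 25 were higher and 5 lower in light zone libraries, and the median log2 difference was 1.10, beside 52.1% higher and a median of 0.03 over all genes. In 8 of them the zones did not overlap with the light zone higher, and in 0 with the dark zone higher. Ccnd2, which encodes the G1 cyclin D2, had 20.9, 97.8 and 83.4 CPM in light zone libraries, against 1.15, 1.02 and 11.6 CPM in dark zone libraries (log2 difference 3.88, SE 1.25; 5.95 without dark zone replicate 3; DESeq2 adjusted p = 0.0261). Dusp2, a nuclear phosphatase that turns off ERK signals, had 131, 261 and 124 CPM in light zone libraries, against 68.9, 65 and 73.9 CPM in dark zone libraries (log2 difference 1.31, SE 0.35). The dark zone libraries were alike, and light zone replicate 2 stood above its fellows.

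Targets of CD40 and NF-kB, the pathway through which T cell help reaches the B cell nucleus, were the next list. Of 28 listed genes 27 were measured and 24 tested. Light zone libraries were higher in 17 and lower in 7, with a median log2 difference of 0.76 (0.42 without light zone replicate 1). Zones did not overlap in 7 of them, all higher in the light zone, beside 5.01% of all tested genes. The 2 lists are not independent, as Cd86, Bcl2a1b, Bcl2a1d, Nfkbia, Nfkb2, Rel and Tnfaip3 are also members of the light zone program. Cd86 and the similar genes Bcl2a1a, Bcl2a1b and Bcl2a1d are among the 7. The antiapoptotic Bcl2a1b, whose exons share 401 bases with Gm29094, had 373, 381 and 361 CPM in light zone libraries, against 116, 241 and 124 CPM in dark zone libraries. Its light zone libraries lay within a narrow band above all dark zone libraries (log2 difference 1.21, SE 0.32; DESeq2 adjusted p = 0.041). The copies Bcl2a1a (1.15, SE 0.41) and Bcl2a1d (1.12, SE 0.40) gave log2 differences of the same size, and because these genes are nearly identical their reads may be shared among them. Irf4, the transcription factor that NF-kB induces on the way to plasma cells, had 49.1, 35.3 and 15.9 CPM in light zone libraries, against 0.242, 0 and 3.82 CPM in dark zone libraries. Its log2 difference of 4.61 had an SE of 1.86. Without dark zone replicate 3 the fitted value was 8.11, but it then rests on dark zone counts of 4 and 0 and is not read as a size.

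Members at the head and end of the pathway differed among themselves. Map3k14, which encodes the kinase NIK of the noncanonical branch, had 12, 13.3 and 9.72 CPM in light zone libraries, against 1.03, 2 and 2.6 CPM in dark zone libraries (log2 difference 2.64, SE 0.66; DESeq2 adjusted p = 0.00635). The receptor gene Cd40 had 94.7, 73 and 53.7 CPM in light zone libraries, against 31.9, 63.1 and 57.6 CPM in dark zone libraries, and the zones overlapped (log2 difference 0.54, SE 0.40; 0.29 without dark zone replicate 1). Nfkbia, the inhibitor that NF-kB induces as feedback, had 122, 186 and 232 CPM in light zone libraries, against 153, 108 and 109 CPM in dark zone libraries, and its zones overlapped too (0.54, SE 0.31, and also 0.31 without light zone replicate 3). Nfkb2, which encodes the p100 precursor and whose exons share 299 bases with Psd, stayed low, at 0.294, 7.72 and 11.6 CPM in light zone libraries, against 0.484, 2.31 and 1.13 CPM in dark zone libraries. Reads of genes with shared exons could come from either gene, as the libraries do not keep strand.

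An NF-kB motif, GGG and TTTCC with any 2 bases between them, read on both strands, was looked for in the 300 bases around each start site (250 before it and 50 after), taken from RefSeq on GRCm38.p6, the mm10 assembly of a C57BL/6J mouse. It was found in 4 of the 18 tested NF-kB targets that have such a window (22.2%) and in 174 of the 8505 tested genes that have one (2.05%). They were Nfkbia, Nfkb2, Rel and Tnfaip3, all of them subunits or inhibitors of NF-kB itself. The promoter of Nfkbia is shown because it carries the motif of the pathway's feedback loop, in capitals, read on the reverse strand and ending 19 bases before the start site.
Nfkbia, chr12:55492598-55492897, minus strand: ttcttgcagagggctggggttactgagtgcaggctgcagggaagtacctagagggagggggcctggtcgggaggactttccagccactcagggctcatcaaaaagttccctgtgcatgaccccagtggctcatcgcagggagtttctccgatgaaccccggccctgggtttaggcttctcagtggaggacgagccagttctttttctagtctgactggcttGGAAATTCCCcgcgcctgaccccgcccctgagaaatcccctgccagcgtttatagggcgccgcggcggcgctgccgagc

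Antigen presentation genes were mostly at higher levels in the light zone too. Of 15 MHC class II genes, all measured and tested, 12 were higher and 3 lower, with a median log2 difference of 0.37, and 4 separated the zones, all with the light zone higher. H2-Aa (chr17:34282744-34287823), the alpha chain of the I-A molecule, had 3600, 4400 and 5230 CPM in light zone libraries, against 2640, 2620 and 3200 CPM in dark zone libraries (log2 difference 0.65, SE 0.17). H2-Eb1, the beta chain of I-E, had 856, 1130 and 1170 CPM in light zone libraries, against 790, 825 and 801 CPM in dark zone libraries, a separation of small size (0.39, SE 0.15). H2-Eb2, a second beta chain gene beside it, had 49.7, 58.8 and 36.3 CPM in light zone libraries, against 20.6, 17.9 and 9.87 CPM in dark zone libraries (1.58, SE 0.47). Ctss, the protease that trims the invariant chain, differed by 0.58 (SE 0.24; 0.38 without dark zone replicate 1), and its zones did not overlap. For the invariant chain gene Cd74 they did, and its log2 difference was 0.37 (SE 0.21; 0.15 without light zone replicate 3). The 3 lower members were Ciita, Rfx5 and Rfxap, which encode the coactivator and subunits of the factor that binds MHC class II promoters, with log2 differences of -0.90 (SE 0.62), -0.83 (SE 0.78) and -0.81 (SE 1.48), and each of them overlapped between the zones.

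That factor binds the X box, whose core was searched as GCAAC and GATG with any 1 base between them. It was found in 2 of the 11 MHC class II genes with a window (18.2%), H2-Eb1 and H2-Eb2, and in 21 of 8505 tested genes (0.247%). Both promoters are shown because these neighbours on chromosome 17 share the element but differed in the size of their zone difference. Capitals mark the X box core, 81 bases before the start in H2-Eb1 and 122 bases before it in H2-Eb2, and CCAAT or its reverse complement, to which NF-Y binds.
H2-Eb1, chr17:34305617-34305916, plus strand: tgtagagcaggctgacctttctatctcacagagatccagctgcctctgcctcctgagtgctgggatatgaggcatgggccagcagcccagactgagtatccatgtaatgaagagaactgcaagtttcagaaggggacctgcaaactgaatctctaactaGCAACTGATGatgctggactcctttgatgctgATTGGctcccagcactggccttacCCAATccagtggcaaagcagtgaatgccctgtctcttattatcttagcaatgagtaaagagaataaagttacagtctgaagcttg
H2-Eb2, chr17:34325425-34325724, plus strand: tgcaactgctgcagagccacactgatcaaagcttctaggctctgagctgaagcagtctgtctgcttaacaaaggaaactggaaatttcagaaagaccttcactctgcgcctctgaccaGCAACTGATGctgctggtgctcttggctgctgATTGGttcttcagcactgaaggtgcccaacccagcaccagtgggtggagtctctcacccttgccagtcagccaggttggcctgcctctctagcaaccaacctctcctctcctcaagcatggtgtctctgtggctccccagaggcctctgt

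Outside MHC class II, Ifi30, a lysosomal thiol reductase that unfolds antigens, had 266, 403 and 301 CPM in light zone libraries, against 137, 85.4 and 129 CPM in dark zone libraries. No light zone library was near a dark zone one (log2 difference 1.47, SE 0.27; DESeq2 adjusted p = 0.000879). The list of 24 lysosomal antigen processing genes as a whole did not lean so, with 15 of 23 tested members higher, 8 lower and a median log2 difference of 0.13, which was -0.18 without light zone replicate 3. Contact molecules for T cells were split as well, with 10 higher and 8 lower of 18 tested (24 listed, 21 measured; median 0.21, or -0.06 without light zone replicate 3), and 2 members, Cd86 and Icam1, separated the zones. Slamf1, a receptor that also serves T and B cell contact, had 122, 96.7 and 142 CPM in light zone libraries, against 119, 44.1 and 69.9 CPM in dark zone libraries, and overlapped (log2 difference 0.63, SE 0.41; 0.35 without dark zone replicate 2 and 1.08 without dark zone replicate 1).

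Growth genes were the third group that leaned to the light zone. The MYC and ribosome biogenesis list holds nucleolar and growth genes that MYC induces, and 24 of its 32 members, all tested, were higher and 8 lower, with a median log2 difference of 0.43. In 7 the zones did not overlap, each with the light zone higher. Npm1 (chr11:33152287-33163206), which encodes the nucleolar protein nucleophosmin, had 1180, 1160 and 836 CPM in light zone libraries, against 661, 666 and 543 CPM in dark zone libraries (log2 difference 0.76, SE 0.18). Hspe1, a mitochondrial chaperonin subunit whose exons share 112 bases with Hspd1, had 787, 609 and 448 CPM in light zone libraries, against 381, 256 and 262 CPM in dark zone libraries (1.04, SE 0.27). Gnl3, a nucleolar GTPase, differed by 1.54 (SE 0.50), and Dhps, which modifies the translation factor eIF5A and shares 128 exon bases with Wdr83, by 2.26 (SE 0.59; DESeq2 adjusted p = 0.014). The lead gene Myc had 67.9, 19.6 and 39.9 CPM in light zone libraries, against 42.9, 17.6 and 12.3 CPM in dark zone libraries. It overlapped, since light zone replicate 2 lay below dark zone replicate 1, and its log2 difference of 0.81 (SE 0.70) was 0.30 without light zone replicate 1 and 1.51 without dark zone replicate 1. The E-box CACGTG that MYC binds was in the window of 9 of 25 of these genes (36%), beside 11.9% of all tested genes with a window.

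Cytosolic ribosomal protein genes differed less but leaned the same way in most members. Of 53, all tested, 46 were higher and 7 lower, with a median log2 difference of 0.20. Zones did not overlap in 3, each with the light zone higher, a share near the 5.01% of all tested genes. Among them was Rplp2, a protein of the ribosomal stalk (0.54, SE 0.21). Its lowest light zone library had 534 CPM and its highest dark zone library 525 CPM. The median rested on the dark zone libraries: it was 0.07 with 35 members higher without replicate 3, and 0.35 with 49 higher without replicate 2.

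Chaperones and sensors of the endoplasmic reticulum (ER), the unfolded protein response, were another list with most members higher. All 23 listed genes were tested, and 20 were higher and 3 lower, with a median log2 difference of 0.61. In 7 the zones separated with the light zone higher, and in Sel1l, a subunit of the ER degradation machinery, with the dark zone higher. Pdia6 (chr12:17266545-17284770), a disulfide isomerase, had 250, 204 and 271 CPM in light zone libraries, against 108, 66.4 and 148 CPM in dark zone libraries (log2 difference 1.17, SE 0.33). Manf, a secreted factor of the ER stress response, had 760, 659 and 619 CPM in light zone libraries, against 239, 470 and 291 CPM in dark zone libraries (1.03, SE 0.28); its exons share 160 bases with Dcaf1 and Rbm15b. Dnajb9, a cochaperone of BiP, had 52.4, 58.8 and 70.2 CPM in light zone libraries, against 7.2, 34.6 and 28 CPM in dark zone libraries (1.38, SE 0.62). The 3 genes share the pattern of a tight light zone and a scattered dark zone.

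The sensor Atf6 was nearly undetected in part of the dark zone, with 28.8, 24.6 and 17.5 CPM in light zone libraries, against 0.182, 0.445 and 7.84 CPM in dark zone libraries. Its log2 difference was 3.06 (SE 1.46), and the fitted value of 6.19 without dark zone replicate 3 rests on dark zone counts of 3 and 10. The best known members did not separate: Hspa5, which encodes BiP, had 322, 194 and 464 CPM in light zone libraries, against 272, 145 and 201 CPM in dark zone libraries (0.67, SE 0.39; 0.32 without light zone replicate 3). Hsp90b1, the ER form of HSP90, had 241, 166 and 267 CPM in light zone libraries, against 107, 177 and 122 CPM in dark zone libraries (0.73, SE 0.29). Xbp1, the transcription factor of the response and of plasma cells, had 26, 197 and 147 CPM in light zone libraries, against 60.1, 35.2 and 143 CPM in dark zone libraries, and no order of the zones could be read from it (0.63, SE 0.83; 0.13 without light zone replicate 2 and 1.37 without dark zone replicate 3).

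The ER stress response element, searched as CCAAT and CCACG with any 9 bases between them on either strand, was in the windows of 7 of 20 of these genes (35%) and of 15 of 8505 tested genes (0.176%). The promoters of Pdia6 and Hsp90b1 show it in capitals. In Pdia6 it lies 79 bases before the start, and in Hsp90b1 there is a copy on each strand, 193 and 88 bases before the start; the windows of both genes hold further CCAAT boxes on the reverse strand, which are not capitalized here.
Pdia6, chr12:17266339-17266638, plus strand: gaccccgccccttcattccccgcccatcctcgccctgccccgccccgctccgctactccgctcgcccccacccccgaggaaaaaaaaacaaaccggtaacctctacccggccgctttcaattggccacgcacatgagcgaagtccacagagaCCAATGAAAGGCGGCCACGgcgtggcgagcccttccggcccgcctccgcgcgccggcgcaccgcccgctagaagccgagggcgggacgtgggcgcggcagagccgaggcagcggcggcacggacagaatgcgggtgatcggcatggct
Hsp90b1, chr10:86705395-86705694, minus strand: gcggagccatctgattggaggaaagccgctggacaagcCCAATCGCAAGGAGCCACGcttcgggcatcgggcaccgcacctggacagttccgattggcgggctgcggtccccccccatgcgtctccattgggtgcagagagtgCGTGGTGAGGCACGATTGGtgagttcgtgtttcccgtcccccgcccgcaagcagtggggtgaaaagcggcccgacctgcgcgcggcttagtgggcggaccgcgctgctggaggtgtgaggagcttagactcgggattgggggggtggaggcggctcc

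**Figure D3:**
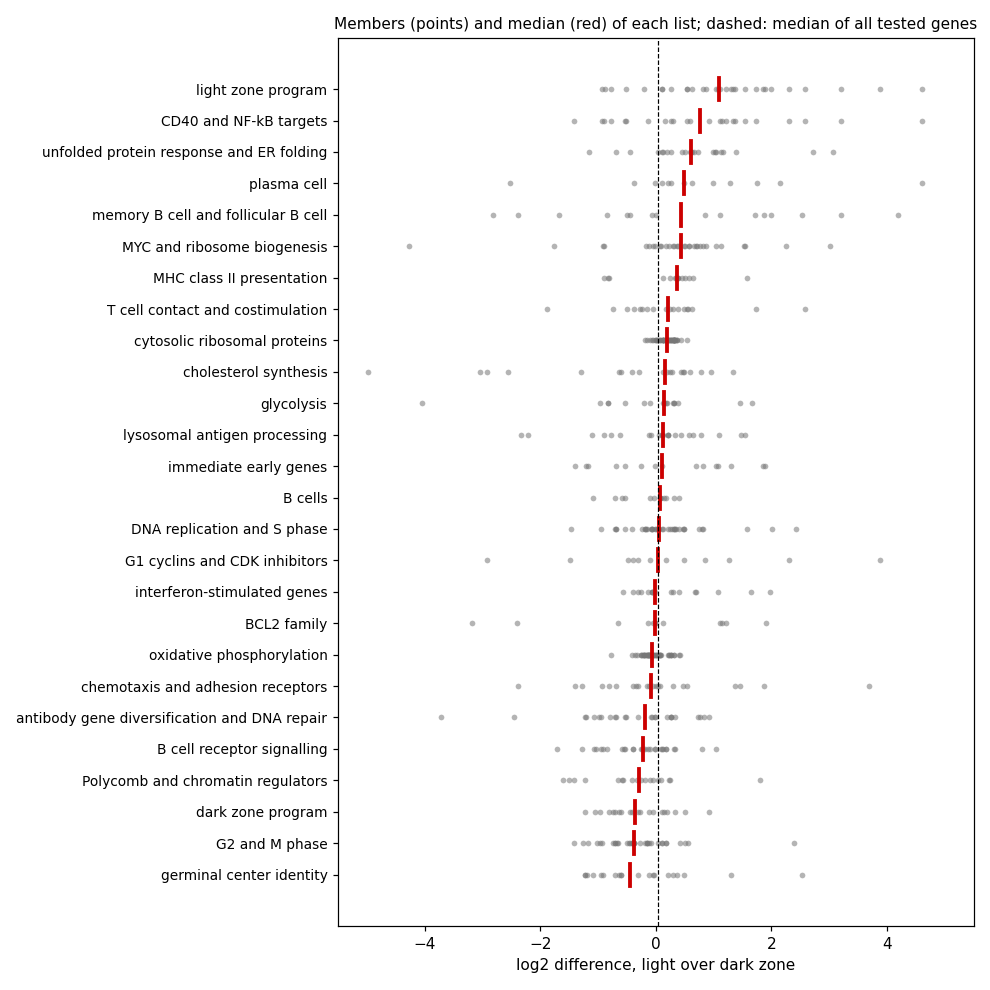
Log2 difference, light over dark zone, of the tested members (points) of 26 lists with the list's median (red bar); the dashed line is the median of all tested genes, 0.03. Medians run from 1.10 for the light zone program at the top to -0.45 for germinal center identity at the bottom.

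Genes of the dark zone lay mostly on the other side. Of the 23 genes of the dark zone program 21 were measured and 20 tested, 14 were lower and 6 higher in light zone libraries, and the median log2 difference was -0.36 (-0.56 without light zone replicate 3). Zones separated in 6, each with the dark zone higher. Pou2af1, the B cell coactivator OBF-1 needed to form germinal centers, had 425, 451 and 388 CPM in light zone libraries, against 761, 546 and 658 CPM in dark zone libraries (log2 difference -0.64, SE 0.17). Foxo1, the transcription factor of the dark zone program, had 79.3, 79.1 and 48.6 CPM in light zone libraries, against 106, 18.4 and 55.1 CPM in dark zone libraries. It did not follow the list, with a log2 difference of 0.20 (SE 0.64) that was -0.23 without dark zone replicate 2 and 0.91 without replicate 1.

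Ccnd3, the cyclin that drives dark zone divisions, was no clearer, with 25.3, 33.2 and 76.1 CPM in light zone libraries, against 58.1, 8.14 and 100 CPM in dark zone libraries. Its log2 difference of -0.30 (SE 0.91) was 0.44 without dark zone replicate 3, and its exons share 361 bases with Bysl.

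The germinal center identity list shares Bcl6, Pou2af1 and Rgs13, among others, with the dark zone program. Of 21 genes 20 were measured and tested, 14 were lower and 6 higher in the light zone, and the median log2 difference was -0.45, but -0.21 without dark zone replicate 1 or 3. Gcsam, an adaptor of germinal center B cells that limits their migration, had 275, 316 and 462 CPM in light zone libraries, against 667, 559 and 758 CPM in dark zone libraries (log2 difference -0.91, SE 0.24). Ezh2 (chr6:47530139-47595341), the histone methyltransferase of Polycomb complex 2, had 44.6, 36.3 and 61.3 CPM in light zone libraries, against 98.6, 147 and 86.1 CPM in dark zone libraries (-1.22, SE 0.35). Bcl6, the repressor that defines the germinal center, had 113, 61.8 and 77.8 CPM in light zone libraries, against 234, 69.4 and 83 CPM in dark zone libraries. Of the dark zone libraries replicate 1 alone stood above all light zone libraries, and without it the log2 difference of -0.61 (SE 0.54) was 0.15. Cd38, which mouse germinal center cells reduce and memory and naive cells keep, went the other way, with 76.8, 36.7 and 102 CPM in light zone libraries, against 2.3, 8.72 and 26.3 CPM in dark zone libraries (2.53, SE 0.94).

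The list of chromatin regulators holds Ezh2 itself, which is among its members that separated the zones. Most of its members were lower in the light zone. Of 18, all tested, 13 were lower and 5 higher, with a median log2 difference of -0.29 (-0.14 without dark zone replicate 1 and -0.45 without replicate 2), and 3 separated with the dark zone higher. Smarca4, the ATPase BRG1 of the SWI/SNF remodeler, had 8.87, 20.4 and 10.8 CPM in light zone libraries, against 39.8, 29 and 45.5 CPM in dark zone libraries (-1.51, SE 0.52). Eed and Suz12, the partners of Ezh2 in the complex, overlapped between zones, with log2 differences of -0.32 (SE 0.32) and -0.56 (SE 0.34).

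Cell division genes were lower in light zone cells in 27 of the 36 members of the G2 and M phase list, all tested, and higher in 9. Their median log2 difference was -0.37 (-0.21 without light zone replicate 1), and 6 separated the zones, each with the dark zone higher. Hmgb2, Cdc20 and Ccnb2 are also members of the dark zone program, so these lists are not independent. Cdc20 (chr4:118432901-118437352), the activator of the anaphase-promoting complex, had 46.7, 48.4 and 33.2 CPM in light zone libraries, against 87.4, 68.9 and 95 CPM in dark zone libraries (log2 difference -0.97, SE 0.31); its exons share 53 bases with Elovl1. Ccnb1, the mitotic cyclin B1, had 209, 183 and 225 CPM in light zone libraries, against 272, 246 and 490 CPM in dark zone libraries, and its difference of -0.71 (SE 0.30) was -0.34 without dark zone replicate 3. Kif23, a kinesin of the cleavage furrow, had 19.5, 11.4 and 34.6 CPM in light zone libraries, against 44.4, 46.5 and 56.4 CPM in dark zone libraries (-1.17, SE 0.51). Hmgb2, a chromatin protein of dividing cells, differed by -0.41 (SE 0.12) with no overlap.

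Ccnb2, cyclin B2, was high in light zone replicate 1 and overlapped, with 456, 299 and 272 CPM in light zone libraries, against 392, 680 and 645 CPM in dark zone libraries (-0.74, SE 0.30). The proliferation marker Mki67 had 225, 243 and 342 CPM in light zone libraries, against 559, 264 and 288 CPM in dark zone libraries, and its log2 difference of -0.45 (SE 0.35) was -0.03 without dark zone replicate 1. Genes of DNA replication and S phase did not lean this way, with 23 higher and 17 lower of 40 tested and a median of 0.05. Cdk2, the kinase of the S phase entry, was lower in light zone libraries, with 24.3, 30.6 and 45.3 CPM, against 124, 90.7 and 67 CPM in dark zone libraries (-1.49, SE 0.39; DESeq2 adjusted p = 0.0385).

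**Figure D4:**
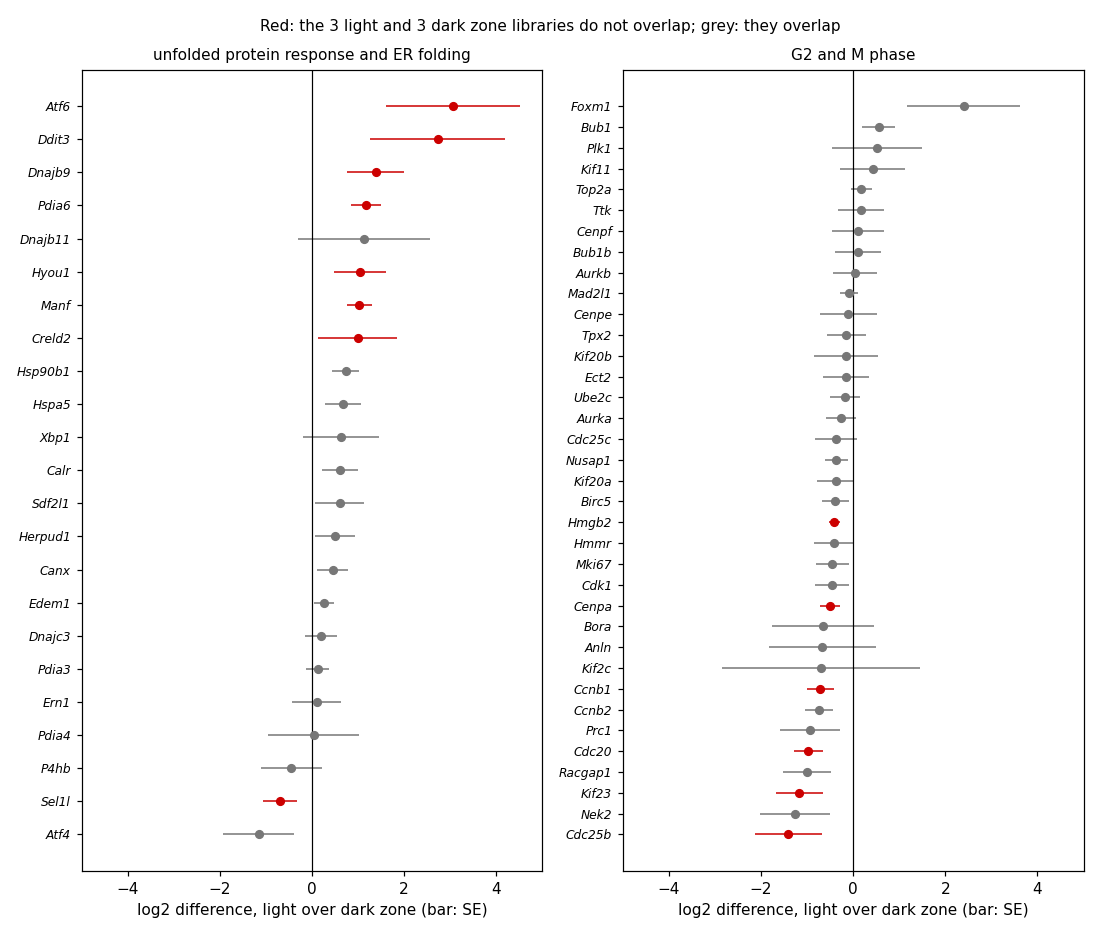
Log2 difference, light over dark zone, with its SE (bar) for the 23 unfolded protein response genes (left) and the 36 G2 and M phase genes (right). Red points are genes whose zones do not overlap: 7 of the first list lie right of 0 and 1 left, and 6 of the second lie left of 0.

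G2 and M phase genes are known for a cell cycle homology region, TTTGAA, beside CCAAT boxes, through which the DREAM and MuvB complexes and NF-Y time their transcription. These letters were in the windows of 22 of 30 list members (73.3%) and of 14.8% of all tested genes with a window, and CCAAT in 80% and 43.6%. The promoters of Cdc20, Ccnb2 and Kif23 are shown with both in capitals. In Cdc20 TTTGAA lies 12 bases before the start, between CCAAT boxes, and in Kif23 it lies past the annotated start. Ccnb2 holds 3 CCAAT boxes before its start and TTTGAA on both sides of them.
Cdc20, chr4:118437294-118437593, minus strand: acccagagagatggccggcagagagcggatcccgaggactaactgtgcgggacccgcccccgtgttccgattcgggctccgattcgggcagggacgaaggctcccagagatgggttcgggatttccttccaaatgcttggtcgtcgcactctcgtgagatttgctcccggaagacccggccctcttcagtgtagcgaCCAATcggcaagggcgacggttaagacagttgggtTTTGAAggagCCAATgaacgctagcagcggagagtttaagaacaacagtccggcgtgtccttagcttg
Ccnb2, chr9:70421505-70421804, minus strand: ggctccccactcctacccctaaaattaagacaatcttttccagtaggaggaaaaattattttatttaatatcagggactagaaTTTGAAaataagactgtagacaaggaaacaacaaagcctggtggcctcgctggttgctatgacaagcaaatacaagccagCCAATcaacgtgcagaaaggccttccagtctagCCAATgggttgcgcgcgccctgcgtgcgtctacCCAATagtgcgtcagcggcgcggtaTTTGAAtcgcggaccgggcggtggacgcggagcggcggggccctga
Kif23, chr9:61946750-61947049, minus strand: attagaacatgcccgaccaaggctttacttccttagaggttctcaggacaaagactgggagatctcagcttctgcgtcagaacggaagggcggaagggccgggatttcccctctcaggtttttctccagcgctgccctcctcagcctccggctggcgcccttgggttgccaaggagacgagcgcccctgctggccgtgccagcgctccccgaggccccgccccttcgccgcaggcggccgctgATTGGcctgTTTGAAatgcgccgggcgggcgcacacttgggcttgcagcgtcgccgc

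Antibody gene diversification and repair genes leaned weakly to the dark zone. Of 26 tested, 17 were lower and 9 higher, with a median log2 difference of -0.19 that lay between -0.48 and -0.05 under the other settings tried. Rev3l, the catalytic subunit of polymerase zeta, had 151, 126 and 166 CPM in light zone libraries, against 230, 218 and 183 CPM in dark zone libraries (-0.51, SE 0.20). Ung, which removes uracil from DNA, and the polymerase gene Polh overlapped, with log2 differences of -0.69 (SE 1.0) and 0.92 (SE 2.32).

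B cell receptor signalling genes were lower in the light zone in 20 of 29 members, all tested, and higher in 9, with a median log2 difference of -0.23 (-0.41 without dark zone replicate 2). Rasgrp3, which activates Ras below the receptor, had 65.9, 83.4 and 80 CPM in light zone libraries, against 167, 258 and 128 CPM in dark zone libraries (-1.27, SE 0.32; DESeq2 adjusted p = 0.0302). The receptor chain Cd79b had 1240, 1500 and 1750 CPM in light zone libraries, against 2240, 2480 and 1760 CPM in dark zone libraries, where light zone replicate 3 and dark zone replicate 3 nearly met (-0.53, SE 0.19). Its partner Cd79a did not differ so, at 0.09 (SE 0.17). Immediate early genes, which receptor signals induce within minutes, were split 8 to 7 of 15 tested (22 listed, 18 measured), with a median of 0.11. That median ran over -0.04 without dark zone replicate 2 and 0.53 without light zone replicate 3, and was 0.44 without light zone replicate 1 and -0.34 with limma-voom. Among them Egr1 had 61.9, 18.3 and 12.1 CPM in light zone libraries, against 4.3, 12.9 and 7.74 CPM in dark zone libraries, and its difference of 1.89 (SE 0.84) was 0.87 without light zone replicate 1.

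Survival and death genes of the BCL2 family were split. Of 18 listed genes 16 were measured and 12 tested, with 6 higher, 6 lower and a median log2 difference of -0.01 (-0.24 without light zone replicate 3 and 0.25 without light zone replicate 1). The antiapoptotic Bcl2a1 copies above were higher in the light zone, while Bcl2 itself had at most 0.291 CPM in any library. Pmaip1, the death-promoting BH3 protein NOXA, had 0.176, 2.68 and 4.82 CPM in light zone libraries, against 24.3, 32.3 and 13.1 CPM in dark zone libraries (-3.18, SE 1.18). Bcl2l11, which encodes BIM, had 7.75, 2.99 and 1.99 CPM in light zone libraries, against 35, 28.1 and 4.82 CPM in dark zone libraries, and dark zone replicate 3 overlapped the light zone (-2.41, SE 0.98). Mcl1, on which germinal center cells depend, had 239, 192 and 82 CPM in light zone libraries, against 242, 123 and 167 CPM in dark zone libraries. Its log2 difference of -0.05 (SE 0.46) took either sign when a library was left out, at most 0.28 without light zone replicate 3.

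Genes of cells that leave the germinal center were not of a piece. In the plasma cell list 10 of 13 tested genes (16 listed, 15 measured) were higher in the light zone and 3 lower, with a median log2 difference of 0.49 (0.27 without light zone replicate 3 and 0.85 without dark zone replicate 2). Jchain, the joining chain of secreted IgM and IgA, had 8250, 9030 and 10200 CPM in light zone libraries, against 6150, 8240 and 9190 CPM in dark zone libraries, and overlapped (0.22, SE 0.17; 0.07 without dark zone replicate 1). The plasma cell surface gene Sdc1 had 0.117, 8.75 and 0.0831 CPM in light zone libraries, against 0.0605, 0 and 0.142 CPM in dark zone libraries. Among memory and follicular B cell genes 9 of 16 tested (21 listed, 20 measured) were higher and 7 lower, and the median of 0.43 had the other sign under some settings, with -0.28 without light zone replicate 3, -0.19 without light zone replicate 1 and -0.21 without dark zone replicate 3. Cr2, the complement receptor CD21, had 61.3, 36.8 and 37.9 CPM in light zone libraries, against 20.8, 18.4 and 23.7 CPM in dark zone libraries (1.11, SE 0.41). Fcmr, the receptor for IgM, had 234, 445 and 298 CPM in light zone libraries, against 169, 149 and 221 CPM in dark zone libraries (0.86, SE 0.30; 0.56 without light zone replicate 2). Nt5e, the ectonucleotidase CD73, was lower, with 4.29, 10.3 and 11.6 CPM in light zone libraries, against 20.6, 45.1 and 18.6 CPM in dark zone libraries (-1.68, SE 0.66).

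Receptors of migration and adhesion gave 10 higher and 12 lower of 22 tested genes (26 listed, 25 measured), with a median log2 difference of -0.08 (-0.28 without light zone replicate 1 and 0.01 without light zone replicate 3). Cxcr5, the receptor that draws B cells into follicles and whose exons share 110 bases with Bcl9l, had 146, 45.8 and 14.9 CPM in light zone libraries, against 23.1, 20.4 and 31.6 CPM in dark zone libraries, so light zone replicate 1 made most of its difference (1.46, SE 0.82; 0.28 without it). S1pr2, which keeps germinal center cells at the center, had 152, 113 and 61.5 CPM in light zone libraries, against 143, 145 and 113 CPM in dark zone libraries (-0.30, SE 0.36; -0.02 without light zone replicate 3). Anxa2, a membrane-binding annexin, had 71.2, 59.3 and 102 CPM in light zone libraries, against 193, 217 and 200 CPM in dark zone libraries, with the dark zone libraries within a narrow band (-1.39, SE 0.26; DESeq2 adjusted p = 0.000458). S100a10, the protein that pairs with annexin A2 in a complex, went the opposite way, with 54.3, 57.5 and 91.7 CPM in light zone libraries, against 47.2, 12.8 and 18.5 CPM in dark zone libraries (1.37, SE 0.59; 2.12 without dark zone replicate 1). The integrin chain Itgb7 had 4.64, 0.875 and 8.94 CPM in light zone libraries, against 0.182, 0.49 and 0.425 CPM in dark zone libraries (3.69, SE 1.01).

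Genes outside the lists were named by the smallest p among those with at least a 2-fold difference, 10 CPM in the higher zone and no overlap, which 194 genes met with the light zone higher and 259 with the dark zone higher. Sub1, a transcriptional coactivator that binds single-stranded DNA, had 1030, 1120 and 914 CPM in light zone libraries, against 238, 450 and 228 CPM in dark zone libraries (1.74, SE 0.30; DESeq2 adjusted p = 9.54e-05). Prdx6, a peroxiredoxin, had 163, 261 and 188 CPM in light zone libraries, against 59.7, 73.8 and 77.5 CPM in dark zone libraries (1.54, SE 0.26). Slpi, an inhibitor of leukocyte proteases, had 1520, 3210 and 1510 CPM in light zone libraries, against 543, 910 and 655 CPM in dark zone libraries (1.56, SE 0.37). Phf11b, a PHD finger protein, had 364, 269 and 278 CPM in light zone libraries, against 148, 152 and 151 CPM in dark zone libraries (1.01, SE 0.18). C1qbp, a mitochondrial matrix protein, and Polr2e, a subunit shared by the RNA polymerases, differed by 1.45 (SE 0.33) and 1.34 (SE 0.31). That no dark zone library reached the light zone range in these genes was required by the rule that named them.

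Lower in light zone libraries by the same rule was Pafah1b3, a subunit of a platelet-activating factor hydrolase, with 110, 249 and 167 CPM in light zone libraries, against 595, 788 and 446 CPM in dark zone libraries (-1.80, SE 0.37; DESeq2 adjusted p = 0.00166). Cat, the catalase that breaks down hydrogen peroxide, had 72, 79.4 and 72.1 CPM in light zone libraries, against 175, 140 and 142 CPM in dark zone libraries (-1.03, SE 0.21). Dap, a death-associated protein, had 52.7, 55.6 and 91.6 CPM in light zone libraries, against 177, 171 and 186 CPM in dark zone libraries (-1.42, SE 0.28). Myl4, a myosin light chain, and Myzap, a junction-associated protein, differed by -1.36 (SE 0.30) and -2.74 (SE 0.59). The dark zone replicates of Cat and Dap were close together, while those of Myzap ranged over 27 to 89.2 CPM.

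Some of the genes named by that rule were all but absent from a zone. Cahm had 13.4, 15.4 and 9.02 CPM in light zone libraries, against 0 in all 3 dark zone libraries. With 3 counts per library as the floor, which covers counting error only, it was at least 69.2-fold higher in these light zone libraries. In treated mice it overlapped, with 0, 0.595 and 0 CPM in light zone libraries, against 0.773, 0.632 and 0 CPM in dark zone libraries (scaled over all 12 libraries). Gm11423, annotated as an antisense gene, had 0 in all 3 light zone libraries, against 8.48, 16.7 and 10.2 CPM in dark zone libraries. By the same floor it was at least 67-fold lower in these light zone libraries. It too overlapped in treated mice, with 9.59, 0.853 and 0.0516 CPM in light zone libraries, against 1.74, 0.284 and 0 CPM in dark zone libraries. Gipc1, a PDZ adaptor protein, had 0.176, 0 and 0 CPM in light zone libraries, against 37.2, 40.6 and 19.1 CPM in dark zone libraries. 2310022B05Rik had 11, 22.8 and 8.81 CPM in light zone libraries, against 0.182, 0.401 and 0.425 CPM in dark zone libraries. Gmeb2, Ifit1bl1, Mvd and Zscan26 had at most 1.18 CPM in any light zone library, against 0.908 to 41.6 CPM in dark zone libraries. Such switches are to be read beside the 508 symbols that were missing from a library and present in another of the same zone.

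Cd52, which encodes a small glycoprotein anchored on lymphocytes, had the smallest edgeR p of all genes and was chosen after its values were seen, since its difference is under 2-fold. It had 8530, 8650 and 8370 CPM in light zone libraries, against 4390, 4970 and 4580 CPM in dark zone libraries. The replicates of each zone lay in a narrow band, and the log2 difference was 0.87 (SE 0.09; edgeR adjusted p = 0.557, limma-voom adjusted p = 0.0201, DESeq2 adjusted p = 4.88e-12). Its exons (gene at chr4:134082448-134095082) share 172 bases with Crybg2.

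Most markers of other cells were low or overlapped between the zones, but Cd3g, Ccl19, Flt3, Pdcd1 and Kdr did not overlap. Cd3g encodes CD3 gamma, which T cells carry beside their antigen receptor, and it had 15.7, 20.3 and 22.9 CPM in light zone libraries, against 0.182, 0 and 0.142 CPM in dark zone libraries. The other CD3 chains did not share this: Cd3e had 0.881, 0.669 and 1.79 CPM in light zone libraries, against 0.666, 0.579 and 0.755 CPM in dark zone libraries, and Cd3d had 2.68 to 3.91 CPM in light zone libraries, against 3.4 to 4.18 CPM in dark zone libraries. Cd4 was at 0 in all light zone libraries and at most 0.134 CPM in dark zone libraries, and Cd8a was at 0 in all 6. The 17 measured T cell genes summed to 179 to 356 CPM in light zone libraries, against 226 to 311 CPM in dark zone libraries, with Lck and Cd2 making up most of it. The 8 measured genes of follicular helper T cells summed to 46.3 to 188 CPM in light zone libraries, against 43.6 to 64.2 CPM in dark zone libraries. Cxcr5, which B cells are also known to express, held the most counts of them in each library. In bulk libraries fewer cells of a type and less RNA per cell cannot be told apart.

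The 18 measured macrophage and monocyte genes summed to 39.1 to 87.4 CPM in light zone libraries, against 33.8 to 48.4 CPM in dark zone libraries. Their defining members were near 0, with Lyz2 at most 0.47 CPM in light zone libraries and at most 0.331 CPM in dark zone libraries, and C1qb at 0 in all 6. The 9 erythroid and platelet genes summed to 75.5 to 105 CPM in light zone libraries, against 67.3 to 1310 CPM in dark zone libraries. The upper end was dark zone replicate 1, where the globin gene Hbb-bs gave 203 of the 1310 CPM and other genes of the list gave the rest. The 8 measured neutrophil genes summed to 94.8 to 215 CPM in light zone libraries, against 104 to 130 CPM in dark zone libraries, nearly all of it Cxcr2 and Csf3r, while S100a8 was at 0 in all 6. Dendritic cell genes (6 measured) summed to 75.6 to 113 CPM in light zone libraries, against 97.7 to 178 CPM in dark zone libraries. Flt3 among them had 46.1, 53.5 and 76 CPM in light zone libraries, against 78, 147 and 78.3 CPM in dark zone libraries. Natural killer cell genes (4 measured) summed to 6.93 to 25.2 CPM in light zone libraries, against 1.09 to 17.7 CPM in dark zone libraries. Stromal and endothelial genes (7 measured) summed to 104 to 157 CPM in light zone libraries, against 125 to 391 CPM in dark zone libraries. The summed B cell markers (13 measured) overlapped, at 6660 to 8220 CPM in light zone libraries, against 7550 to 8390 CPM in dark zone libraries. Within them Pax5, the B lineage factor, had only 0.416 to 0.822 CPM in light zone libraries, against 0.242 to 1.94 CPM in dark zone libraries. The part of these other cells in the zone differences above was not tested.

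The same contrast in treated mice was set beside the untreated one in a fit of all 12 libraries, which asks whether the zone difference depended on the treatment. By edgeR 0 of 12081 genes passed for the difference between the zone differences. An unadjusted p under 0.05 was reached by 275 genes (2.28%), where 604 would be expected with no difference at all. Without treated light zone replicate 2 there were 1218 such genes, and edgeR again called 0. The 0 calls therefore do not show that the zone differences were alike in both treatments. DESeq2 called 15, with Gm11423 and Gipc1 among the genes named here. In treated mice the zones did not overlap in 700 genes (5.79%). In 33 genes every light zone library was above every dark zone library in both treatments, which is 5.73% of the 576 such genes among the 12081 in untreated mice and 12.2% of the 271 in treated mice, where 2.24% of tested genes were of that kind. They included Cd83, Cd86, Bcl2a1b, Cd3g, Cr2, Ifi30 and Nop58. In the opposite direction 30 genes separated in both, 4.64% of 647 untreated and 6.99% of 429 treated (3.55% of tested genes), with Anxa2 and Kif23 among them. Cxcr4 separated in treated mice, with 31.8, 42.6 and 19.9 CPM in light zone libraries, against 77.9, 90.1 and 163 CPM in dark zone libraries (scaled over all 12 libraries), and its log2 difference in this fit was -0.83 (SE 0.60) in untreated and -1.81 (SE 0.61) in treated mice.

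Over the 12081 genes the zone difference had the same sign in untreated and treated mice in 54.2%. List medians lay close in some groups and apart in others. The light zone program had a median of 1.08 in untreated and 0.87 in treated mice, the CD40 and NF-kB targets 0.74 in untreated and 0.87 in treated mice, and the G2 and M phase genes -0.40 in untreated and -0.50 in treated mice. Unfolded protein response genes had 0.59 in untreated mice and 0.04 in treated mice, beside 0.01 in untreated and 0.07 in treated mice over all tested genes. Its members were not alike in this. Pdia6 differed by 1.15 (SE 0.40) in untreated and by 0.11 (SE 0.39) in treated mice, and its zones overlapped in treated mice. Dnajb9 (1.35 untreated, 0.27 treated) and Atf6 (3.05 untreated, -0.98 treated) also had lower values in treated mice. Manf, at 1 (SE 0.56) untreated and 1.71 (SE 0.57) treated, and Hsp90b1, at 0.71 (SE 0.45) and 0.78 (SE 0.45), did not. Polycomb and chromatin regulators had -0.31 in untreated and -0.08 in treated mice, and BCL2 family genes -0.03 in untreated and 0.52 in treated mice. Memory and follicular B cell genes had 0.41 in untreated and 1.3 in treated mice, interferon-stimulated genes -0.04 in untreated and 0.49 in treated mice, and migration receptors -0.10 in untreated and 0.38 in treated mice. Metabolic and replication genes lay apart as well, with -0.09 in untreated and 0.50 in treated mice for oxidative phosphorylation, 0.12 in untreated and -0.47 in treated mice for glycolysis, and 0.03 in untreated and -0.36 in treated mice for S phase. None of these differences between medians was tested. Of the treated libraries, light zone replicate 2 and dark zone replicates 1 and 2 stood apart. This split falls unevenly on the zones, so zone and split cannot be fully told apart in the treated medians above. For example, Atp5j had 2190, 344 and 2490 CPM in treated light zone libraries, against 464, 428 and 2420 CPM in treated dark zone libraries. The 3 libraries had 17.9, 13.7 and 15 CPM of the macrophage gene Lyz2, beside at most 0.351 CPM in the other treated libraries. Without those 3 libraries edgeR again called 0 genes for the difference between the zone differences.

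**Figure D5:**
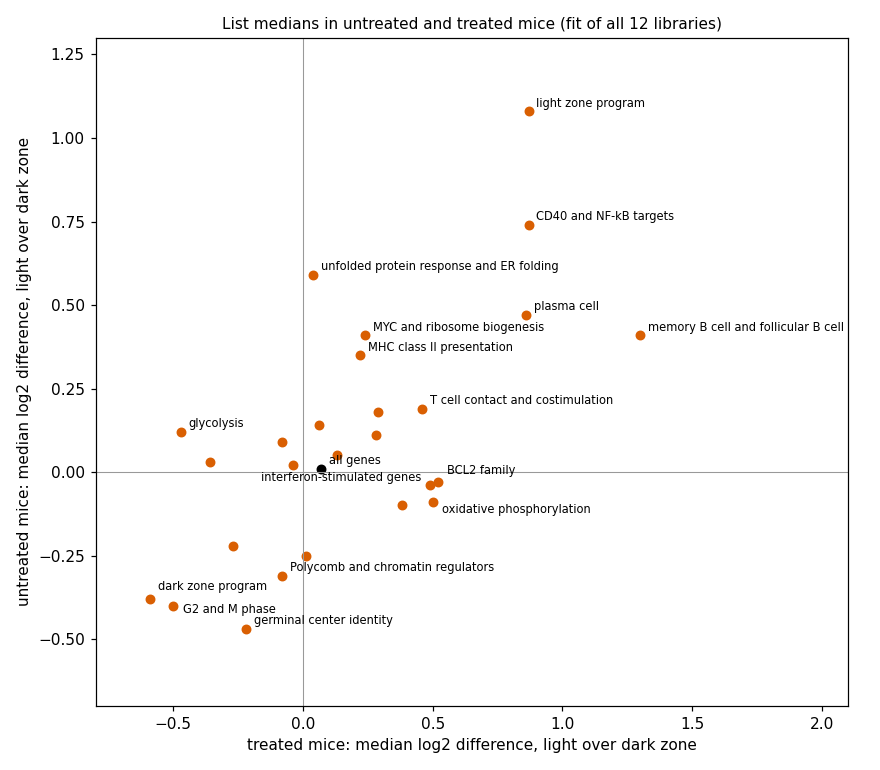
Median log2 difference, light over dark zone, of the lists shown above in untreated mice (vertical axis) and treated mice (horizontal axis), from the fit of all 12 libraries; the black point is the median of all tested genes. The light zone program (1.08 untreated, 0.87 treated) lies at the top right, and the unfolded protein response genes (0.59 untreated, 0.04 treated) lie near the vertical line at 0.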

How the data were processed

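Per the labels, 1000 cells per zone were sorted from spleen and cDNA was made with SMART-Seq v4 and Nextera XT, which keep no strand. Per the submitters' processing notes, reads were aligned to mm10 with BWA; they name no version, counter or annotation. The authors deposited expected counts per gene symbol, whole or midway between whole numbers in 2595 of 12212 symbols. Midway values were rounded up and blanks taken as 0, and all symbols stayed in.

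Genes passing filterByExpr (minimum count 10) were fitted with edgeR 4.0.16 (TMM, robust quasi-likelihood, R 4.3.3), with Benjamini-Hochberg adjustment over all tested genes at 0.05, on the 6 untreated libraries, or on all 12 for the difference between treatments. Alternatives were DESeq2 1.42.0, limma-voom 3.58.1, other scaling and filters, other library sets and a replicate block. The code was tested on simulated data.

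Named genes were the zone markers, then 12 genes per direction by smallest p (at least 2-fold, 10 CPM, no overlap), then up to 5 per list and its defining genes; some genes so named are not reported here. The members and the 34 lists were chosen with earlier results of these data known. The numbers were not taken to pair libraries because the labels do not state shared mice. Deviations from the zone means of same-numbered libraries correlated at 0.0311, -0.00916 and 0.119. The last value, for replicate 3, was the highest of any light and dark zone pair. The log2 CPM of that pair correlated at 0.86, above any correlation within a zone (at most 0.811). Whether these libraries share a mouse was not tested. Gene positions are from GENCODE M21 on mm10, and promoter windows from RefSeq on GRCm38.p6; the mice are of another strain. Floors (3 counts, 0.125 to 0.182 CPM) cover counting error only.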

Additional observations from a re-analysis of the deposited data

Results flagged for a closer look

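Cyp51 and Pole separated the zones in both treatments but in opposite directions. They were found among 77 named genes whose zones did not overlap in untreated mice. In treated mice 2.24% of all tested genes separated with the light zone higher and 3.55% with the dark zone higher. A few such reversals among the named genes are to be read beside these shares. Cyp51, the lanosterol demethylase of cholesterol synthesis, shares 166 exon bases with Akap9 in libraries that keep no strand. It had 36.8, 13.4 and 51.5 CPM in light zone libraries of untreated mice, against 106, 75.6 and 67.4 CPM in dark zone libraries. In treated mice it had 133, 103 and 200 CPM in light zone libraries, against 79.2, 91 and 67.3 CPM in dark zone libraries. Its log2 zone difference was -1.31 (SE 0.48) in untreated and 0.88 (SE 0.48) in treated mice, and the difference between them, untreated minus treated, was -2.19 (edgeR, unadjusted p = 0.00816, adjusted p = 1).

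Pole, the catalytic subunit of DNA polymerase epsilon, had 95.2, 45.2 and 18.4 CPM in light zone libraries of untreated mice, against 8.6, 6.1 and 14.7 CPM in dark zone libraries. In treated mice it had 13.5, 25.4 and 21 CPM in light zone libraries, against 28.3, 30.2 and 63.3 CPM in dark zone libraries. Its zone difference was 2.41 (SE 0.68) in untreated and -1.03 (SE 0.65) in treated mice, a difference of 3.44 (edgeR, unadjusted p = 0.00399, adjusted p = 1). Neither difference passed the adjustment over 12081 genes, and the CPM of treated libraries are scaled over all 12 libraries.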

How the results depend on the processing

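With edgeR, the count of genes called between the zones was 0 under every scaling, filter, rounding and library set tried, and with each library left out, while 277 to 676 genes had an unadjusted p under 0.05. DESeq2 called 110 and limma-voom 1. For the difference between untreated and treated mice edgeR called 0 throughout and DESeq2 15. The replicate block, with numbers not shown to pair the libraries, called 0 genes between the zones (408 at an unadjusted p under 0.05) and 0 for the difference between treatments (238). Under the block the log2 difference of Ccnd3 was 0.09, against -0.30 without it. Leaving out 1 library gave either sign for Ccnd3 (-0.92 to 0.44), Mcl1 (-0.37 to 0.28), Foxo1 (-0.23 to 0.91) and Bcl6 (-0.91 to 0.15), and the cause was not tested. In 1718 other comparisons of a named gene with an alternative the sign and the side of the threshold were kept, and in 35, all with DESeq2 or limma-voom, the gene passed a threshold that it missed with edgeR. Over all settings the median of the light zone program lay between 0.86 and 1.21, and other medians ran over 0.47 to 0.69 for the unfolded protein response, 0.33 to 0.54 for MYC and ribosome biogenesis and 0.27 to 0.51 for MHC class II. At the depth of these libraries 3 counts are at most 0.182 CPM, so fold changes of genes near that level are not read as sizes.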

Other observations

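Among cholesterol synthesis genes 11 of 20 tested members were higher and 9 lower in light zone libraries of untreated mice, with a median log2 difference of 0.16. Without light zone replicate 1 there were 6 higher and 14 lower with a median of -0.66, and without light zone replicate 3 the median was -0.32. The 3 members that separated the zones were all lower in the light zone. Mvd, the decarboxylase that ends the mevalonate pathway, had 0.411, 0.618 and 0.707 CPM in light zone libraries, against 6.54, 41.6 and 7.22 CPM in dark zone libraries (DESeq2 adjusted p = 0.00035).

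Genes of glycolysis gave 10 higher and 7 lower of 17 tested (22 listed), with a median of 0.14, or 8 higher and 12 lower with a median of -0.20 without light zone replicate 3. Slc16a1, a lactate transporter, had 113, 56.5 and 28.9 CPM in light zone libraries, against 12.1, 25 and 25.5 CPM in dark zone libraries (1.66, SE 0.62; 1.03 without light zone replicate 1). Hk2, the hexokinase of growing cells, had 15.6, 5.87 and 8.27 CPM in light zone libraries, against 2.78, 4.54 and 3.49 CPM in dark zone libraries (1.46, SE 0.66; 0.97 without light zone replicate 1). Pdk1, a kinase that keeps pyruvate out of mitochondria, was lower, with 1.29, 0.103 and 1.58 CPM in light zone libraries, against 41, 6.14 and 2.5 CPM in dark zone libraries (-4.05, SE 1.52; -2.12 without dark zone replicate 1). Oxidative phosphorylation genes, 19 higher and 29 lower of 48, had a median of -0.06, which was 0.07 without dark zone replicate 2.

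Interferon-stimulated genes were split as a list, with 8 higher and 9 lower of 17 tested (28 listed, 24 measured) and a median of -0.01, which was 0.48 without dark zone replicate 2. Among those that separated the zones was the transcription factor Irf7, which shares 45 exon bases with a neighbouring gene. Irf7 had 17.2, 24.3 and 16.1 CPM in light zone libraries, against 4.84, 5.87 and 7.7 CPM in dark zone libraries (log2 difference 1.64, SE 0.55; DESeq2 adjusted p = 0.035). Induced genes such as Isg15 and Ifit3 were at or below 3.99 CPM in light zone libraries and 0.425 CPM in dark zone libraries.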
